A study of Mus musculus with 9 samples.

Results

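Transcript levels of 8 genes of vascular growth signalling were examined in whole mouse ovaries. They comprise the VEGF ligands Vegfa, Vegfb and Vegfc, the VEGF receptors Kdr, Flt1 and Flt4, the peptide ligand Apln (apelin) and its receptor Aplnr. The genes were taken by symbol from the count table, which holds 46078 genes, and each symbol had a single row, so that all 8 were found. All 8 passed edgeR's filter on low counts, as did 16722 genes in all. RNA-seq was made from ovaries of 5 wild-type (WT) and 4 ERβKO mice, all C57BL/6J, with 1 library per animal. ERβKO mice lack exon 3 of Esr2, the gene of estrogen receptor β, in every cell, since floxed mice had been crossed with a Rosa26-driven Cre deleter line, and the WT controls carried no Cre. The labels call all 9 animals untreated, while the protocol text they share also describes a high-fat diet and injections of a receptor ligand or its vehicle, and the diet of each ovary is not given. The mice of the study were aged 4 to 20 weeks, and estrous stage was not assigned to the ovaries.

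VEGF-A is the main signal for the sprouting of blood vessels and acts chiefly through KDR (VEGFR2), while FLT1 (VEGFR1) binds VEGF-A tightly and limits its access to KDR. VEGF-B binds FLT1, and VEGF-C acts through FLT4 (VEGFR3), best known for the growth of lymphatic vessels. Apelin is a secreted peptide made by sprouting endothelial tip cells among other cells, and APLNR is a G protein-coupled receptor of endothelium. The adult ovary builds new vessels in every cycle, around growing follicles and above all in the corpus luteum, where granulosa and luteal cells make VEGF-A.

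Between 12353740 and 18717510 fragments were counted per library. In a principal component analysis of log2 CPM, the first component (35.9% of the variance) placed the ERβKO ovaries at 19.4 to 35.3, WT replicate 2 at 9.43 and the remaining WT ovaries at -43.8 to -15.6. Values that changed markedly without this ovary are given with and without it. The genotype labels were not checked against Esr2, whose count also covers the exons outside the deletion. The endothelial markers Pecam1, Cdh5 and Tek were present in every ovary, at 17.6 to 21.8, 15.3 to 22.7 and 5.12 to 6.25 FPKM in WT and at 17.9 to 21.1, 14.4 to 21.3 and 5.11 to 5.74 FPKM in ERβKO ovaries. In bulk tissue, fewer cells of a type and less RNA per cell cannot be told apart.

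Of the 8 genes, Apln was lower in ERβKO ovaries by edgeR's quasi-likelihood test, and the other 7 did not pass. Apln is a small gene with 3 exon blocks on the minus strand of the X chromosome, at chrX:48025146-48034853 of GRCm38 (ENSMUSG00000037010). The sequence around its start is shown because Apln was the gene called, and that of Kdr (chr5:75932827-75978458, ENSMUSG00000062960) because Kdr had the most counts among the receptors. Each runs from 250 bases before to 50 bases after the start in the RefSeq annotation of GRCm38.p6, 5′ to 3′ on the minus strand. Capitals mark GCGTG, a core of the hypoxia response element, and GGTCA, an arm of the palindrome to which estrogen receptors bind, which reads TGACC where it lies on the other strand.
Apln, chrX:48034804-48035103: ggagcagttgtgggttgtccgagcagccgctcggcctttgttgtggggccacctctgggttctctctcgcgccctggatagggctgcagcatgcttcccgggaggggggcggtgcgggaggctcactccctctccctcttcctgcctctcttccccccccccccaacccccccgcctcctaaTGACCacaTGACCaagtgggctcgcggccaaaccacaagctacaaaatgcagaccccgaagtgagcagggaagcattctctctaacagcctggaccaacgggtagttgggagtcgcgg
Kdr, chr5:75978406-75978705: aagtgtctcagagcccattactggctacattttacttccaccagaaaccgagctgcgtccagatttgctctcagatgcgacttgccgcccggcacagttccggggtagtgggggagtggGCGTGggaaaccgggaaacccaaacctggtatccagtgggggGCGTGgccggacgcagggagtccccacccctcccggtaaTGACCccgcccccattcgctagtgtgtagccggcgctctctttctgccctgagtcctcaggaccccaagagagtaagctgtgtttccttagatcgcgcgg

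The Apln sequence holds GGTCA at 2 places, beginning 68 and 60 bases before the start, and neither ACGTG nor GCGTG. The Kdr sequence holds GCGTG 131 and 89 bases before the start and GGTCA 50 bases before it. RefSeq promoters were matched for 7 of the 8 genes, with a pair of starts for Vegfa. On both strands, ACGTG or GCGTG was also found in Vegfb, in Flt1 and at the second start of Vegfa, and GGTCA in Vegfb, in Flt4 and at the second start of Vegfa. The first start of Vegfa and the start of Vegfc had none of these letters. None of the sequences held the full palindromic estrogen response element or CAAGGTCA, the NR5A element, which overlaps GGTCA. Short elements of this kind are common: of all 32851 promoters in the table, 40.5% held GGTCA, 43.8% held ACGTG or GCGTG, 1.56% held CAAGGTCA and 0.07% held the full palindrome. A match describes the letters and does not show a bound site. The study mapped ERβ binding in WT ovaries by ChIP-seq and lists Apln among LH and FSH surge genes for which it found no ERβ site. It concludes that these genes are lower because of the reduced surge in knockout mice and are not direct targets, which was not tested here.

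The level of Apln in WT replicates 1 to 5 was 11.6, 1.55, 9.22, 9.11 and 16.8 FPKM. In ERβKO replicates 1 to 4 it was 1.77, 1.60, 1.94 and 1.32 FPKM. Thus 4 WT ovaries were above every ERβKO ovary, while WT replicate 2 lay among the ERβKO ovaries. The underlying counts were 112 in WT replicate 2, 606 to 1006 in the other WT ovaries and 76 to 130 in ERβKO ovaries, so the low values were well above the limit of detection.

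WT ovaries averaged 9.66 ± 5.5 FPKM (SD, n = 5) and ERβKO ovaries 1.66 ± 0.27 FPKM (SD, n = 4). For Apln the log2 fold change of ERβKO over WT was -2.61 (standard error 0.53, 95% interval -3.79 to -1.43), a level 6.09-fold higher in WT. After Benjamini-Hochberg adjustment over all tested genes, its p was 0.0379 in the edgeR quasi-likelihood test and 0.000314 in DESeq2, the study's own tool. A gene was called where this adjusted p was under 0.05, the absolute log2 fold change over 0.4 and the mean FPKM over 1 in at least 1 genotype. By these criteria 1 of the 8 genes was called, against 1.72% of all tested genes in either direction and 0.801% in the lower direction. DESeq2 called the same single gene among the 8, and 4.8% of all genes.

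**Figure D1:**
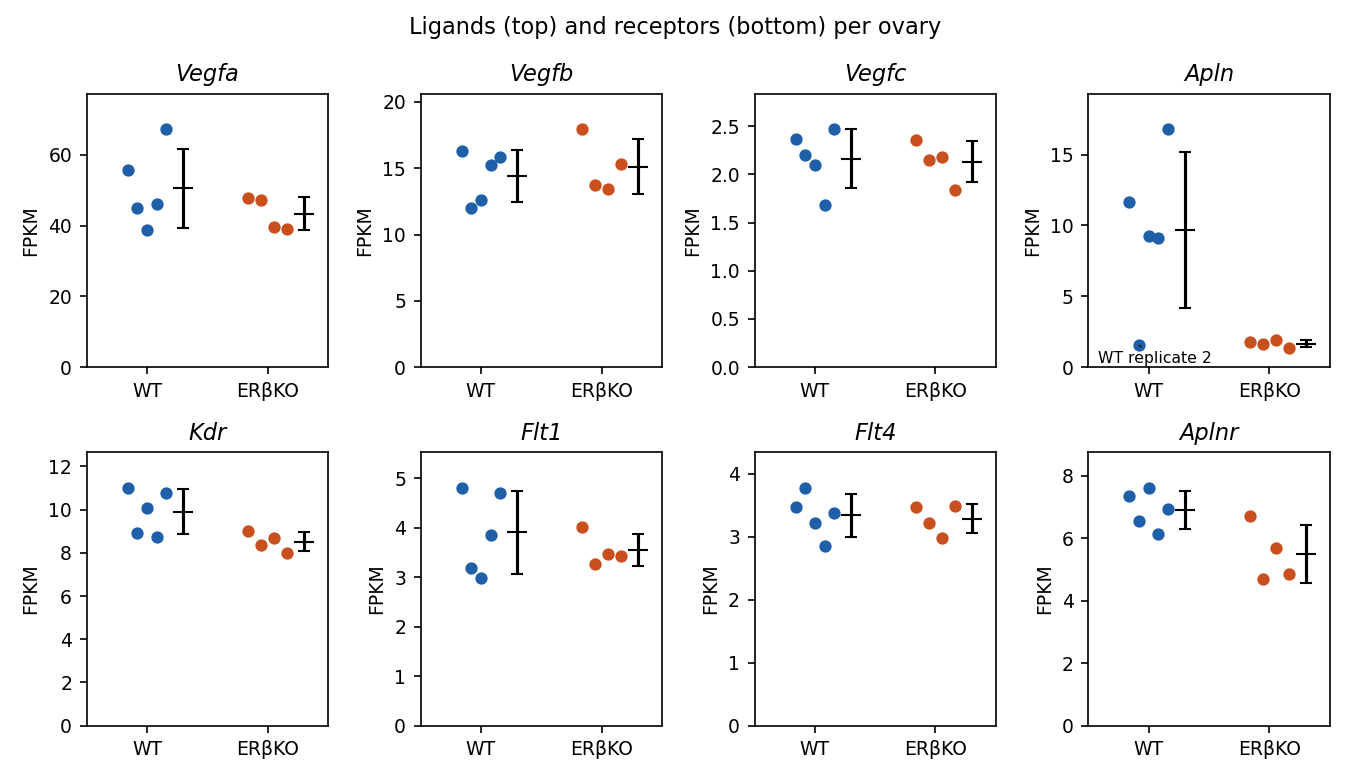
FPKM (vertical axes, from 0) of the 4 ligands in the top row and the 4 receptors in the bottom row, with a point for each WT (blue, n = 5) and ERβKO (orange, n = 4) ovary and black bars for the mean ± SD. Apln lay at 9.11 to 16.8 FPKM in 4 WT ovaries and at 1.55 FPKM in WT replicate 2, beside 1.32 to 1.94 FPKM in ERβKO ovaries, while the genotypes overlapped for the other 7 genes.

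Because of WT replicate 2 the genotypes overlapped for Apln, and the two-sided exact permutation test over all splits of the 9 ovaries gave p = 0.0635, where 0.0159 is the smallest possible. The 4 other WT ovaries averaged 11.7 ± 3.6 FPKM (SD, n = 4), which was 7.55-fold the level of WT replicate 2 and 7.05-fold the mean of ERβKO ovaries. WT replicate 2 had 0.934 of the ERβKO mean. Without this ovary the log2 fold change of Apln was -2.89 (edgeR adjusted p = 0.00124, with 5.56% of all genes called). The genotypes then did not overlap and the exact permutation p was 0.0286, the smallest that 4 against 4 allows. As that ovary was the only WT ovary overlapping the ERβKO ovaries, leaving it out fixed both outcomes, so they are no further test. Without WT replicate 2, 7.74% of all tested genes had every ERβKO ovary below every WT ovary, against 4.04% with all 9 ovaries. WT replicate 2 lay inside the range of the ERβKO ovaries in 40.3% of those 1294 genes, so its position for Apln was shared by many genes.

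The call of Apln was not stable. The log2 fold change was negative in 23 of 23 alternative fits, from -4.03 to -1.77, but Apln was called in 8 of them, and the adjusted p ran from 2.98e-32 to 0.941. The share of all tested genes called ran from 0% to 8.64% over the same fits. The lowest p and the highest share were from DESeq2 without WT replicate 2, which was added after seeing the data and is among the 8. The highest p and the lowest share were from the fit with the mean of granulosa markers as a covariate. That mean did not overlap between the genotypes. With each of the other 8 ovaries left out in turn, the edgeR adjusted p of Apln was 0.0469 without WT replicate 3 and between 0.0707 and 0.125 for the rest. In the 7 libraries numbered below 200 in the labels, which hold 3 of the WT and all ERβKO ovaries, the log2 fold change of Apln was -2.19 (edgeR adjusted p = 0.149). Among WT ovaries the spread of Apln on the log2 CPM scale was at the 99.6th percentile of all tested genes, and among ERβKO ovaries at the 68.8th. The WT spread came largely from replicate 2, as the SD was 1.34 with all 5 WT ovaries and 0.44 without that ovary, at the 83.4th percentile.

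Aplnr, the receptor of apelin, is a gene with a single exon block at chr2:85136225-85139923 (ENSMUSG00000044338). WT replicates 1 to 5 had 7.35, 6.53, 7.61, 6.13 and 6.91 FPKM of Aplnr, and ERβKO replicates 1 to 4 had 6.70, 4.71, 5.68 and 4.84 FPKM. All ERβKO ovaries but replicate 1 were below the lowest WT ovary, and WT replicate 2 was among the other WT ovaries. The mean was 6.91 ± 0.60 FPKM (SD, n = 5) against 5.48 ± 0.92 FPKM (SD, n = 4). Its fold change on the log2 scale was -0.37 (standard error 0.12, 95% interval -0.64 to -0.11). This difference did not pass, with an adjusted p of 0.124 in edgeR and 0.0530 in DESeq2 (unadjusted p = 0.00981 in edgeR, exact permutation p = 0.0476). The sign was negative in 23 of 23 alternative fits, and Aplnr was called in 1 of them, DESeq2 without WT replicate 2 (adjusted p = 0.0379, with 8.64% of all genes called), which was added after seeing the data.

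The ligand and its receptor were also set against each other within each ovary, which removes the scaling of the library. The FPKM of Apln over that of Aplnr was 1.58, 0.237, 1.21, 1.49 and 2.43 in WT replicates 1 to 5 and 0.264, 0.340, 0.341 and 0.272 in ERβKO replicates 1 to 4. Apln transcripts thus exceeded Aplnr transcripts per length in 4 of 5 WT ovaries and in 0 of 4 ERβKO ovaries. The mean log2 ratio was lower by 1.87 in ERβKO ovaries, a difference that did not pass with all ovaries (two-sided exact permutation test, p = 0.0794, or p = 0.238 after adjustment over the 6 ratios tested). Without WT replicate 2 the ovaries of the genotypes did not overlap and the difference was -2.42 (exact permutation p = 0.0286, unadjusted). Only that WT ovary was not above every ERβKO ovary, so leaving it out fixed the lack of overlap and this p.

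For Kdr, the main signalling receptor of VEGF-A, WT replicates 1 to 5 had 11.0, 8.90, 10.1, 8.73 and 10.7 FPKM, and ERβKO replicates 1 to 4 had 9.01, 8.37, 8.70 and 8.002 FPKM. On this scale, 3 of the 4 ERβKO ovaries were below the lowest WT ovary. The mean of Kdr was 9.90 ± 1.0 FPKM (SD, n = 5) against 8.52 ± 0.43 FPKM (SD, n = 4). The log2 fold change was -0.23 (standard error 0.085, 95% interval -0.42 to -0.044). The adjusted p was 0.173 in edgeR and 0.113 in DESeq2 (unadjusted p = 0.0205 in edgeR, exact permutation p = 0.0635), so Kdr did not pass. Its sign was negative in 23 of 23 alternative fits, and in all 23 Kdr missed at least 1 of the criteria. At an unadjusted p under 0.05 and with the lower level in ERβKO, 3 of the 8 genes were counted (Apln, Aplnr and Kdr), beside 10.0% of all tested genes.

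Flt1, the decoy-like receptor (chr5:147561604-147726011, ENSMUSG00000029648), ranged from 2.99 to 4.81 FPKM in the WT and from 3.27 to 4.02 FPKM in ERβKO ovaries. The ERβKO ovaries all lay inside the WT range. Its log2 fold change was -0.15 (95% interval -0.48 to 0.18, edgeR adjusted p = 0.619). Counts over the whole gene do not separate the soluble form of FLT1, which traps VEGF-A, from the membrane receptor. Flt4, the VEGF-C receptor (chr11:49609263-49652739, ENSMUSG00000020357), ranged from 2.85 to 3.78 FPKM in the WT and from 2.99 to 3.48 FPKM in ERβKO ovaries. Flt4 had a log2 fold change of -0.041 (95% interval -0.24 to 0.16, edgeR adjusted p = 0.843), an interval that leaves out a change of 0.4 in either direction.

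Vegfa (chr17:46016993-46032377, ENSMUSG00000023951) was the most abundant of the 8 genes, at the 94.4th percentile of the tested genes in WT ovaries. WT replicates 1 to 5 had 55.6, 44.8, 38.8, 46.0 and 67.2 FPKM of Vegfa, and ERβKO replicates 1 to 4 had 47.6, 47.2, 39.7 and 39.0 FPKM. WT replicates 1 and 5 were above all other ovaries, and the other 7 ovaries lay together between 38.8 and 47.6 FPKM. The mean was 50.5 ± 11 FPKM (SD, n = 5) against 43.4 ± 4.7 FPKM (SD, n = 4). The fold change of Vegfa was -0.26 on the log2 scale (standard error 0.15, 95% interval -0.59 to 0.080). The difference was within the spread between ovaries (edgeR adjusted p = 0.380, exact permutation p = 0.222). With each ovary left out it ran from -0.34 to -0.11, the smallest without WT replicate 5, the ovary with the most Vegfa. The splice forms of Vegfa, which differ in how far they diffuse, cannot be told apart in these counts.

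Vegfb (chr19:6982473-6987651, ENSMUSG00000024962), the ligand that binds only FLT1 among these receptors, averaged 14.4 ± 2.0 FPKM (SD, n = 5) in the WT and 15.1 ± 2.1 FPKM (SD, n = 4) in the ERβKO ovaries. The ovaries spanned 11.98 to 16.3 and 13.4 to 17.9 FPKM, and the log2 fold change was 0.062 (95% interval -0.20 to 0.32, edgeR adjusted p = 0.815). Vegfc (chr8:54077532-54186454, ENSMUSG00000031520), the lymphatic growth factor, was low, at 2.16 ± 0.31 FPKM (SD, n = 5) in the WT and 2.13 ± 0.21 FPKM (SD, n = 4) in the ERβKO ovaries. With 67 to 108 counts per ovary, Vegfc had a log2 fold change of -0.069 (95% interval -0.41 to 0.27, edgeR adjusted p = 0.843). Apart from Apln, the largest absolute log2 fold change of the 8 genes was therefore that of Aplnr, at -0.37, and 7 of the 8 estimates were negative, where 50.1% of all tested genes had a negative one.

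**Figure D2:**
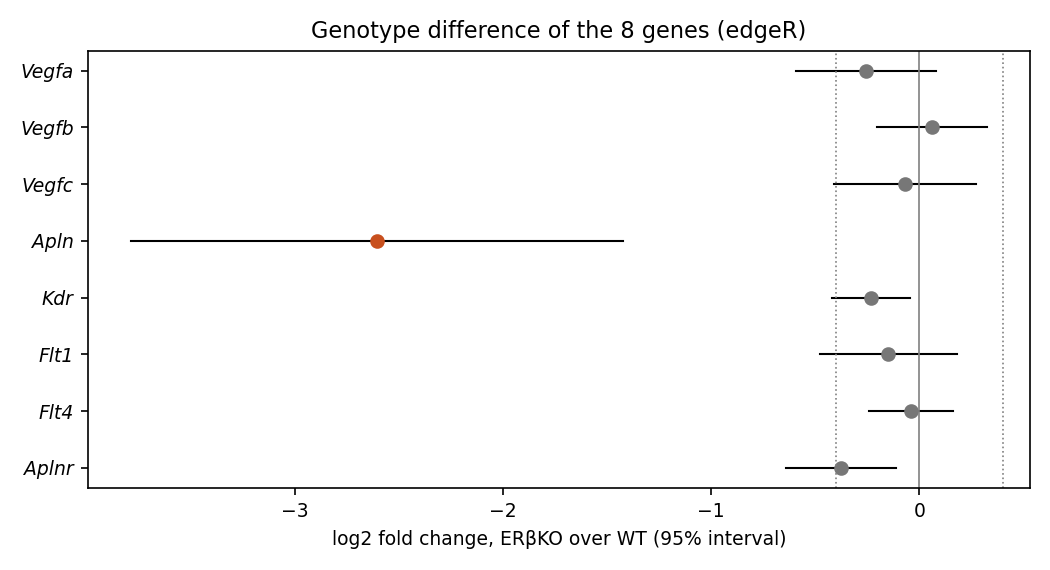
Log2 fold change of ERβKO over WT ovaries (horizontal axis) for the 8 genes, with points for edgeR's estimate (orange where called) and lines for its 95% interval; dotted lines stand at -0.4 and 0.4. Apln lies at -2.61, and the intervals of Kdr and Aplnr are below 0 although neither passed after adjustment over all genes.

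Since FPKM is scaled by gene length, the levels of the 8 genes can be set in order. In WT ovaries the order of the mean FPKM was Vegfa, Vegfb, Kdr, Apln, Aplnr, Flt1, Flt4 and Vegfc. The ranges of Kdr and Apln, of Apln and Aplnr, and of Flt1 and Flt4 overlapped, and these neighbours did not differ beyond their spread. In ERβKO ovaries it was Vegfa, Vegfb, Kdr, Aplnr, Flt1, Flt4, Vegfc and Apln, where the ranges of Flt1 and Flt4 and of Vegfc and Apln overlapped. Apln went from position 4 to position 8 of this order, and from the 62.0th to the 22.8th percentile of the tested genes, while the order of the other 7 genes was the same in both genotypes.

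Vegfa made up most of the VEGF ligand transcripts in every ovary. Of the summed FPKM of Vegfa, Vegfb, Vegfc, Vegfd (listed under its older symbol Figf) and Pgf, it held 66.8% ± 3.6 in WT and 62.6% ± 1.7 in ERβKO ovaries (SD, n = 5 and 4). Vegfb held 19.3% ± 1.9 and 21.8% ± 2.4, Vegfd 8.03% ± 1.9 and 10.0% ± 1.4, and Vegfc 2.92% ± 0.46 and 3.09% ± 0.29 (SD, n = 5 and 4). Among the VEGF receptors Kdr held 57.7% ± 2.3 in WT and 55.5% ± 1.7 in ERβKO ovaries, Flt1 22.7% ± 3.2 and 23.1% ± 0.98, and Flt4 19.6% ± 2.5 and 21.4% ± 1.5 (SD, n = 5 and 4). For these shares the ranges of the genotypes overlapped for Vegfa (63.2% to 72.2% and 60.1% to 64.0%) and for Kdr (56.1% to 61.9% and 53.6% to 57.4%).

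None of the 5 other ratios passed the exact permutation test. The mean ratio of Vegfa to Kdr was 5.09 ± 0.85 in WT and 5.09 ± 0.47 in ERβKO ovaries (SD, n = 5 and 4; log2 difference 0.012, exact permutation p = 0.937). The ratio of Vegfb to Flt1 was 3.74 ± 0.36 and 4.25 ± 0.28 (SD, n = 5 and 4; log2 difference 0.19, exact permutation p = 0.0794, adjusted p = 0.238). The log2 differences of Vegfa to Flt1, Vegfc to Flt4 and Flt1 to Kdr were -0.080, 0.0052 and 0.093. That of Vegfa to Flt1 was -0.16 without ERβKO replicate 2 (two-sided exact permutation p = 0.0714) and ran from -0.16 to -0.044 with each ovary left out.

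**Figure D3:**
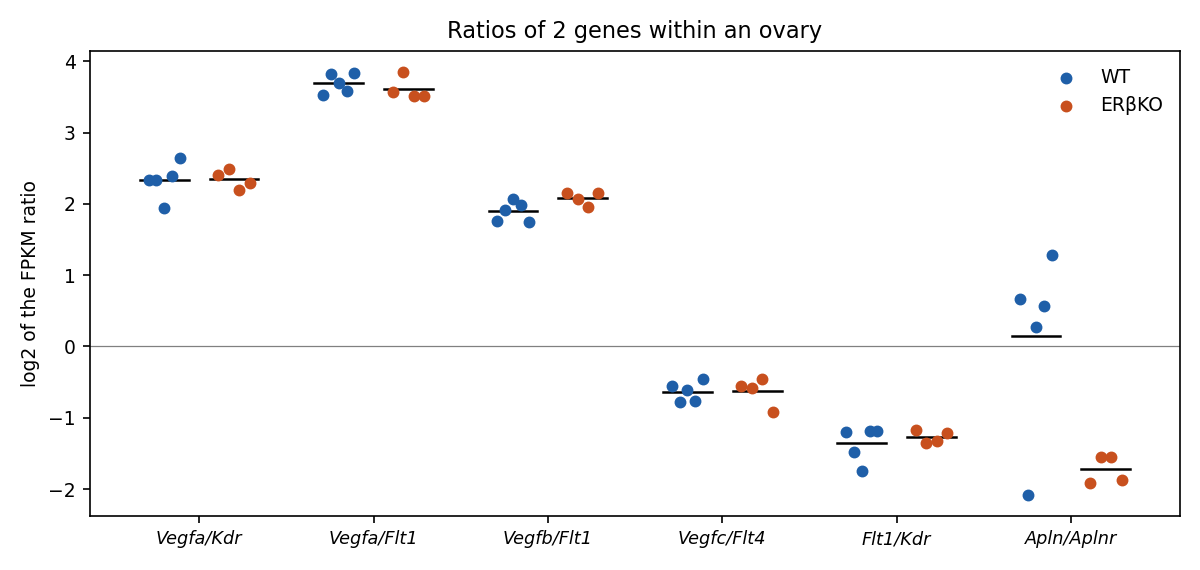
Log2 of the ratio of the FPKM of a pair of genes within each ovary (vertical axis) for 5 WT (blue) and 4 ERβKO (orange) ovaries, with a black line for the mean. The ratio of Apln to Aplnr was above 1 (0 on this scale) in 4 WT ovaries and at 0.237 in WT replicate 2, beside 0.264 to 0.341 in ERβKO ovaries, and the 5 other ratios overlapped between the genotypes.

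Some of the 8 genes varied together from ovary to ovary. Genes read in the same ovary share its library depth and tissue composition, both of which differed between ovaries. After the mean of each genotype was subtracted, the Pearson correlation over the 9 ovaries was 0.94 for Flt1 and Vegfb, 0.87 for Flt1 and Vegfa, and 0.77 for Vegfa and Vegfb. For Apln it was 0.72 with Kdr, 0.64 with Flt1, 0.37 with Aplnr and -0.38 with Flt4. The value with Flt4 rested on WT replicate 2 and was 0.29 without it, while those with Kdr, Flt1 and Aplnr were 0.73, 0.66 and 0.38. Against the mean of 12 endothelial markers it was 0.76 for Flt1, 0.75 for Kdr, 0.63 for Aplnr and 0.52 for Apln, and Flt4 had 0.63 with the mean of 5 lymphatic markers. Without WT replicate 2 these values were 0.69, 0.67, 0.59, 0.32 and 0.47. The ligands Vegfb, Vegfa and Vegfc had 0.71, 0.53 and 0.45 with the endothelial mean, and Flt4 had 0.38 with it. Those values were 0.62, 0.47, 0.53 and 0.77 without WT replicate 2. Among the other tested genes with a mean FPKM over 1, those most like Vegfa by this measure were Aldh3b1, Sod2, Smcr8, Dnaja3 and 2610005L07Rik (0.96 to 0.97). Those most like Kdr were Ergic3, Hax1, Tufm, Pgam1 and Pebp1 (0.96 to 0.99). For Apln they were Desi1, 1110008F13Rik, Ext2, Pigs and Cant1 (0.95 to 0.97), which rested partly on WT replicate 2, since without it the values were 0.67 to 0.91.

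The other genes of the pathway were read from 7 lists, in which 1 of 80 genes was called, where 1.72% of all tested genes were. Among the 5 other ligands and co-receptors none was called (median log2 fold change -0.13, beside -0.00089 for all tested genes). Nrp2, a co-receptor of VEGF-C, was at 15.3 ± 2.8 FPKM in the WT and 10.6 ± 1.1 FPKM in the ERβKO ovaries (SD, n = 5 and 4), which gave a log2 fold change of -0.55. Its edgeR adjusted p of 0.0573 missed the threshold, while it was called by DESeq2 (adjusted p = 0.00346), which called 4.8% of all tested genes. The genotypes did not overlap on the log2 CPM scale, as in 4.04% of all tested genes with ERβKO lower. In FPKM they overlapped slightly, with the lowest WT ovary at 11.844 and the highest ERβKO ovary at 11.849. Nrp1, the co-receptor of VEGF-A, was at 13.5 ± 2.1 and 12.6 ± 1.1 FPKM (SD, n = 5 and 4; edgeR adjusted p = 0.577).

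Vegfa is induced by low oxygen through HIF, and neither the 9 genes of oxygen sensing nor 13 hypoxia-inducible targets held a called gene by edgeR or DESeq2 (medians -0.0023 and 0.024). Hif1a, the oxygen-regulated subunit, was at 44.4 ± 8.0 FPKM in the WT and 47.4 ± 8.6 FPKM in the ERβKO ovaries (SD, n = 5 and 4), and its partner Arnt at 24.5 ± 0.91 and 25.2 ± 0.89 FPKM. The glycolytic targets Ldha and Pgk1 had log2 fold changes of -0.10 each (edgeR adjusted p = 0.665 and 0.639). Over the whole lists, log2 fold changes ran from -0.96 to 0.068 for oxygen sensing and from -0.67 to 0.47 for the targets. The study reports response to hypoxia among the functions enriched in its differentially expressed genes, and this enrichment was not tested here.

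Of 24 genes of signalling below the VEGF receptors, edgeR called 0 (median -0.011), with Cdc42, a small GTPase, at a log2 fold change of -0.26 (edgeR adjusted p = 0.134) and the kinase Mapk3 at -0.13 (edgeR adjusted p = 0.335). DESeq2 called 1 of the 24, beside 4.8% of all tested genes. This was Prkca (protein kinase C alpha, named after its values were seen), at a log2 fold change of -0.73 and an adjusted p of 0.0143 (0.0956 in edgeR). Of 9 genes that couple to the apelin receptor or break apelin down, 0 were called by either tool (median 0.0084). The G protein subunits Gnai2 and Gnai3 had log2 fold changes of 0.0084 and -0.21 (edgeR adjusted p = 0.952 and 0.120).

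Among 11 genes of tip cells and sprouting, edgeR called 0 (median -0.0093), with Cxcr4 at 7.87 ± 1.2 and 8.36 ± 2.2 FPKM and Jag1 at 7.69 ± 1.3 and 7.77 ± 0.91 FPKM (SD, n = 5 and 4). DESeq2 called 1 of the 11, beside 4.8% of all tested genes. This was Angpt2 (named after its values were seen), with a log2 fold change of 0.72 (DESeq2 adjusted p = 0.0226, edgeR adjusted p = 0.0992). Of 9 genes that endothelium induces on VEGF, 1 was called, in the higher direction, as were 0.915% of all tested genes. It was Vcam1, a leukocyte adhesion molecule also made by other cells (median of the list 0.070). Vcam1 was higher in ERβKO ovaries, at 13.7 ± 6.9 FPKM against 3.99 ± 1.3 FPKM in WT (SD, n = 4 and 5). On the log2 scale this was a fold change of 1.77 (standard error 0.38, edgeR adjusted p = 0.0460, DESeq2 adjusted p = 0.00370). Its ovaries ranged from 4.47 to 20.3 FPKM in ERβKO and from 2.90 to 5.87 FPKM in WT, so the genotypes overlapped. The most abundant others of this list, F3 and Nr4a1, had log2 fold changes of 0.070 and -0.023.

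**Figure D4:**
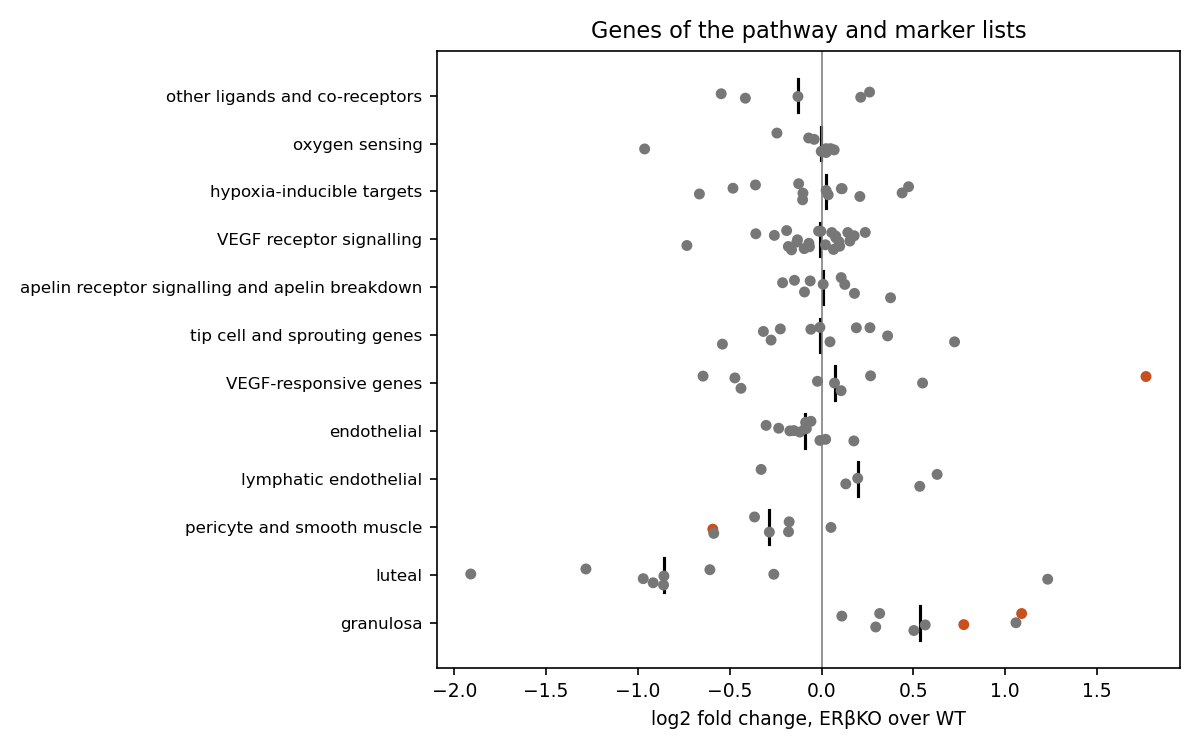
Log2 fold change of ERβKO over WT ovaries (horizontal axis) of each gene in 7 pathway lists and 5 marker lists, with orange points for genes called by edgeR and a black line at the median of each list; the vertical scatter within a list has no meaning. The medians of the pathway lists lie between -0.13 and 0.070, and Vcam1 at 1.77 is the called gene among them.

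The marker genes of the cells that carry or make these signals were compared in the same fit. Of the 12 endothelial markers 0 were called and 10 had a negative log2 fold change (median -0.089). Their mean was 4.76 to 5.08 log2 CPM in WT and 4.72 to 4.92 log2 CPM in ERβKO ovaries, and was 4.76 in WT replicate 2, the lowest WT ovary. When Kdr, Aplnr and Apln were taken relative to this mean, the differences were -0.14, -0.29 and -2.16 on the log2 scale, and the genotypes overlapped for each of the 3. For Apln this overlap came from WT replicate 2, so leaving that ovary out had to end it, and the difference was then -2.71. Kdr and Aplnr overlapped without WT replicate 2 as well. With the endothelial mean as a covariate the log2 fold change of Apln was -2.17 (edgeR adjusted p = 0.132), that of Aplnr -0.29 (edgeR adjusted p = 0.277) and that of Kdr -0.15 (edgeR adjusted p = 0.395). That fit called 0.514% of all tested genes. Of the 5 lymphatic markers 0 were called, and 4 had a positive and 1, Prox1, a negative log2 fold change (median 0.20), with Prox1 at 0.815 ± 0.17 FPKM in the WT and 0.653 ± 0.066 FPKM in the ERβKO ovaries and Lyve1 at 3.77 ± 1.4 and 5.95 ± 0.77 FPKM (SD, n = 5 and 4).

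Markers of other cells of the ovary also differed between the genotypes in part. Beside the counts below, edgeR called 0.801% of all tested genes lower and 0.915% higher, and DESeq2 called 4.8% in either direction. Of 7 pericyte and smooth muscle markers 6 had a negative log2 fold change, and edgeR called 1 and DESeq2 2. The gene called by edgeR was the pericyte receptor Pdgfrb (13.4 ± 2.6 and 9.03 ± 1.3 FPKM (SD, n = 5 and 4), edgeR adjusted p = 0.0487). The mean of the list was 6.91 to 7.07 log2 CPM in WT and 6.52 to 6.85 log2 CPM in ERβKO ovaries. Of the luteal markers 8 of 9 had a negative log2 fold change (median -0.86, 0 called by edgeR and 3 by DESeq2), with a mean of 8.53 to 9.52 log2 CPM in WT and 6.99 to 9.25 log2 CPM in ERβKO ovaries. WT replicates 1 and 5 had the highest luteal means, at 9.52 and 9.49, and the most Apln (11.6 and 16.8 FPKM). WT replicate 2, with its low Apln, had a luteal mean of 8.64, the median of the WT ovaries. WT replicates 3 and 4 had luteal means of 8.53 and 8.55, with 9.22 and 9.11 FPKM of Apln. ERβKO replicates 1 to 4 had luteal means of 7.15, 6.99, 9.25 and 8.01, with 1.77, 1.60, 1.94 and 1.32 FPKM of Apln. Within genotype the correlation of Apln with the luteal mean was 0.32, and 0.51 without WT replicate 2. All 8 granulosa markers had a positive log2 fold change (median 0.53, 2 called by edgeR, beside 0.915% of all genes called higher, and 5 by DESeq2), at 6.78 to 7.04 log2 CPM in WT and 7.41 to 7.59 log2 CPM in ERβKO ovaries, and WT replicate 2 had the lowest value. So did all 6 adipocyte markers (median 1.40, 0 called by edgeR and 3 by DESeq2). Of the theca, stromal, macrophage, dividing, oocyte and erythroid lists, with medians from -0.0023 to 0.43, 1 theca gene was called, in the higher direction. The mean of the theca list was 5.97 to 6.86 log2 CPM in WT and 6.73 to 7.42 log2 CPM in ERβKO ovaries. Its genes had log2 fold changes from -0.28 to 2.35. With the luteal, granulosa or adipocyte mean as a covariate, the log2 fold change of Apln was -2.09, -4.03 and -2.66, and Apln was not called (edgeR adjusted p = 0.351, 0.941 and 0.213). Those fits called 0.102%, 0% and 0.586% of all tested genes. The granulosa mean did not overlap between the genotypes, so its effect and that of genotype cannot be told apart. None of the lists had a marker at 0 FPKM in all ovaries, and the part of cell composition in the level of Apln was not tested.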

How the data were processed

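Ovarian RNA of 5 WT and 4 ERβKO animals was sequenced as polyadenylated, stranded libraries. Per the study's methods, the authors mapped the reads to GRCm38 with STAR and deposited raw fragment counts per gene from featureCounts, with no normalization and no stated strand setting. The deposited FPKM values were calculated by the authors with StringTie, per kilobase and scaled to the mapped fragments of each ovary's library. The deposited TPM and coverage values were read to check the files and not used for a result. None of the 8 genes shares exon sequence with another annotated gene on either strand.

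Counts were filtered with filterByExpr, scaled by TMM and tested for genotype with edgeR 4.0.16 (quasi-likelihood test, Benjamini-Hochberg adjustment) in R 4.3.3. DESeq2 1.42.0 on the same counts, limma 3.58.1 on log2 FPKM, other scalings and filters, a replicate block, each ovary left out, the libraries numbered below 200 and marker means as covariates were alternatives. Log2 CPM were made with a prior count of 2. Single values were tested by two-sided exact permutation in Python 3.11.15 with SciPy 1.17.1. The tests were checked on simulated counts. Nothing states more than 1 library per animal. Same-numbered WT and ERβKO ovaries did not deviate together (correlations of -0.043 to 0.13), so the numbers were not taken to pair them. The 8 genes, the 7 pathway lists and the 12 marker lists were chosen with earlier results of these data known. Genes named from a pathway list were those called and otherwise the 2 with the highest mean FPKM, and marker genes were named where they define a cell type. Genes most like Vegfa, Kdr and Apln were the 5 with the highest correlation within genotype.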

Additional observations from a re-analysis of the deposited data

Results flagged for a closer look

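Apln in WT replicate 2 lay far below its group on the log2 CPM scale, at 2.77, while the other WT ovaries ranged from 5.32 to 6.26. Its gap to the nearest ovary was 0.731 of the range of the 5 ovaries, above Dixon's critical value of 0.71. On the FPKM scale the same ovary, at 1.55 FPKM, did not pass this limit, since WT replicate 5, at 16.8 FPKM, widened the range. The ERβKO ovaries had 2.49 to 3.10 log2 CPM of Apln.

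The FPKM ratio of Vegfa to Flt1 in ERβKO replicate 2 stood apart from its group, at 14.4, while the other 3 ERβKO ovaries lay between 11.4 and 11.9. Its gap was 0.839 of the range of the 4 ovaries, above the critical value of 0.829, and the WT ovaries spanned 11.6 to 14.3. Of 54 groups examined (the 8 genes on 2 scales, the 6 ratios and 5 marker means, in each genotype), 2 stood out in this way, where chance alone gives about 1 in 20.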

How the results depend on the processing

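The signs of Apln, Aplnr and Kdr held in all 23 alternatives, while the call of Apln held in 8. The number of genes called was 287, and 802 with DESeq2, 1430 with DESeq2 without WT replicate 2 (added after seeing the data), 155 with the replicate block, 51 in the libraries numbered below 200, and 86, 17, 0 and 98 with the endothelial, luteal, granulosa and adipocyte mean as a covariate. With the granulosa covariate edgeR left 777 genes at an unadjusted p under 0.05. That mean does not overlap between the genotypes, so their effects cannot be told apart in this fit. With each ovary left out, 60 (without ERβKO replicate 2) to 919 genes (without WT replicate 2) and 0 to 1 of the 8 genes were called. Of the 8 genes 2 were called with DESeq2 without WT replicate 2, and 0 with the replicate block, the libraries numbered below 200, limma and each covariate. With the block Apln had a log2 fold change of -2.04 (edgeR adjusted p = 0.127), and no ovary correlated best with that of its own number.

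Estimates of 5 of the 8 genes and of 3 ratios changed sign under some settings, and the cause was not tested. The log2 fold change was 0.14 for Vegfa, 0.37 for Flt1 and 0.35 for Flt4 with the granulosa covariate, 0.022 for Flt4 with the adipocyte covariate, 0.011 for Flt1 with the endothelial covariate, 0.020 for Flt1 and 0.020 for Vegfc with the luteal covariate and 0.0086 for Vegfc with the block. With each ovary left out it ran from -0.0039 to 0.12 for Vegfb and from -0.14 to 0.0087 for Vegfc. Log2 differences of ratios ran from -0.084 to 0.091 for Vegfa to Kdr (-0.0042 with 1 added to FPKM), from -0.053 to 0.10 for Vegfc to Flt4 and from -0.0053 to 0.14 for Flt1 to Kdr. With 67 to 108 counts per ovary, Vegfc has the least depth of the 8 genes in WT, and its interval does not leave out a change of 0.4 in the lower direction.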
